A study of Mus musculus with 4 samples.

Results

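The DOCK exchange factors and their ELMO partners were followed in DN4 thymocytes of mice with floxed Ikaros alleles, with and without the Cre that deletes them. The set held 9 genes, Dock1, Dock2, Dock5, Dock8, Dock9, Dock10, Dock11, Elmo1 and Elmo2, of 19938 genes that had a probe set with exactly 1 gene symbol. Of each gene the probe set with the highest mean was used, and each of the 9 had 1 probe set to choose from. The genes were selected on earlier results of these arrays, in particular the log2 values of Dock1, which were higher in Cre+ cells. Their differences between the groups are therefore given as a description, without a test.

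DN4 cells, the last thymocyte stage that lacks both CD4 and CD8 at the surface, were sorted from 4 mice with floxed Ikaros alleles (Ikf/f), and total RNA of each mouse was hybridised to 1 Affymetrix mouse gene array. The Cre+ mice, 129 and 135, also carried Rosa26-CreERT2, a recombinase that tamoxifen activates and that is expressed from a locus active in most cell types. The Cre- mice, 131 and 137, had the floxed alleles without the recombinase. Tamoxifen was injected daily at 50 mg/kg over 4 days in all mice, and cells were taken 24 h after the last dose. Thus the Cre- controls shared the floxed alleles and the drug, while loss of Ikaros and activity of the recombinase cannot be told apart in this comparison. Deletion was not limited to thymocytes by the promoter used. The treatment text attached to every sample names the Cre+ genotype, and the sample titles and the design text were followed for the Cre- mice. No age is given in the labels. By their Xist and Kdm5d values, 129 and 131 were females and 135 and 137 males, so that both groups had 1 of each sex.

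DOCK proteins switch on the small GTPases Rac and Cdc42 by exchanging their bound GDP for GTP. Dock1, Dock2 and Dock5 act on Rac and are assisted by the ELMO scaffold proteins, which bind them and relieve their self-inhibition. Dock8, Dock9, Dock10 and Dock11 act on Cdc42, Dock10 also on Rac, and work without ELMO. Dock1, also called DOCK180, is known from the engulfment of dying cells and from the migration of adherent cells, whereas Dock2 and Dock8 are the forms known for lymphocyte migration and for the immune deficiencies that follow their loss.

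The arrays measure summed RNA, so fewer cells with a transcript and less of it per cell cannot be told apart. Array medians lay between 6.85 and 6.88 and values between 3.14 and 14.36 on the log2 scale. With 2 arrays in each group, precision is limited throughout. The values of the targeted gene Ikzf1 were 12.06 and 11.99 in Cre+ cells and 12.07 and 12.11 in Cre- cells. Where its probes lie relative to the deleted part was not analysed here, so this checks nothing about the labels. Of 12 T lineage markers, none lay in the range of the dim reference described below on all arrays, with Cd3e between 12.84 and 13.16. Transcripts of the coreceptors that DN4 cells lack at the surface differed between the sorted groups. Cd8b1 was at 11.50 and 11.59 in Cre+ cells against 11.72 and 11.91, Cd8a at 8.07 and 8.59 against 8.77 and 9.12, and Cd4, in the opposite direction, at 7.88 and 7.94 against 7.26 and 7.47. Cre- mouse 137 stood apart from the other 3 in some class II and B cell genes, with H2-Aa at 7.73 against 6.51 to 6.67, Cd74 at 8.28 against 7.02 to 7.45 and Ms4a1 at 5.77 against 4.76 to 5.13. Values without this mouse are given where they matter.

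Upstream sequences are shown for Dock1, the gene with the large difference, and for Dock2 and Dock8, the lymphocyte forms it was contrasted with, because Ikaros is a DNA-binding protein whose sites share the core GGGAA. Each is the 250 bases before the RefSeq start site (GRCm38.p6), read 5′ to 3′ on the gene's strand. Capitals mark GGGAA or its reverse complement TTCCC.
Dock1 (chr7:134670437-134670686, + strand): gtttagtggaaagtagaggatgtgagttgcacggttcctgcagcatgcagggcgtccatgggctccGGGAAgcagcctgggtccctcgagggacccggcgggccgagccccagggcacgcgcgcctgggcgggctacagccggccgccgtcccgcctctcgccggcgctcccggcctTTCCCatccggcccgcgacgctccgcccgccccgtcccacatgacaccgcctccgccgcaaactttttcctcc
Dock2 (chr11:34783906-34784155, - strand): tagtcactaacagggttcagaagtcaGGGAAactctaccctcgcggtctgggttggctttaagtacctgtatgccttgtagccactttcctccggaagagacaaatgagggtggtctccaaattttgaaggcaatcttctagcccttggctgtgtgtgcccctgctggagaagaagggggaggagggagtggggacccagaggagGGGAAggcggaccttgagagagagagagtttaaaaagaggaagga
Dock8 (chr19:24999279-24999528, + strand): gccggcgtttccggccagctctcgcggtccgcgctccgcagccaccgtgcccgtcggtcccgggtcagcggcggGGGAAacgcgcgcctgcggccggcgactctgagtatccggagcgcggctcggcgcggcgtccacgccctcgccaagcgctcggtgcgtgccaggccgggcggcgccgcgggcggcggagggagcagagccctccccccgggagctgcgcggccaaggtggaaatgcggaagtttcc

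The Dock1 window held 2 matches, which began 184 and 73 bases before the start site, and 1 of them was also a match to the longer TGGGAA, which contains the shorter motif. The Dock2 window held 2, at 224 and 45 bases, and the Dock8 window held 1, at 176 bases. The motif was common. On both strands, 56.2% of all 32851 RefSeq windows of this length held GGGAA at least once, 21.2% held it 2 times or more, and 21.6% held TGGGAA. Of the 9 genes all but Dock5 were matched in the table, with 14 windows, and 10 of these held GGGAA. The Dock1 window thus had as many matches as that of Dock2, and these matches are letters in a window, not measured binding sites. The bases G and C made up 71.6% of the Dock1 window, 52.8% of the Dock2 window and 77.6% of the Dock8 window, against a median of 52.4% over all windows.

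Among the Rac exchange factors, Dock1 stood apart. Its log2 value was 8.24 and 8.53 in the Cre+ mice and 5.83 and 5.87 in the Cre- mice. Both Cre+ values lay above both Cre- values, by at least 2.37. The difference of the means was 2.53 (limma SE 0.13, n = 2 and 2), a 5.79-fold difference of the RMA values. The Cre- values lay in the dim range described below. With them raised to the upper end of that range, the difference was 2.21, or 4.64-fold. The Cre- mice differed from each other by 0.03 and the Cre+ mice by 0.29. In the female pair the difference was 2.41 and in the male pair 2.66. Leaving out any one mouse gave 2.39 to 2.68. Among the 19938 genes, Dock1 had the third largest positive difference of the measured RMA values. Toward higher values in Cre+ cells, 4 genes differed by 2 or more and 58 by 1 or more, against 8 by 1 or more in the other direction.

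**Figure D1:**
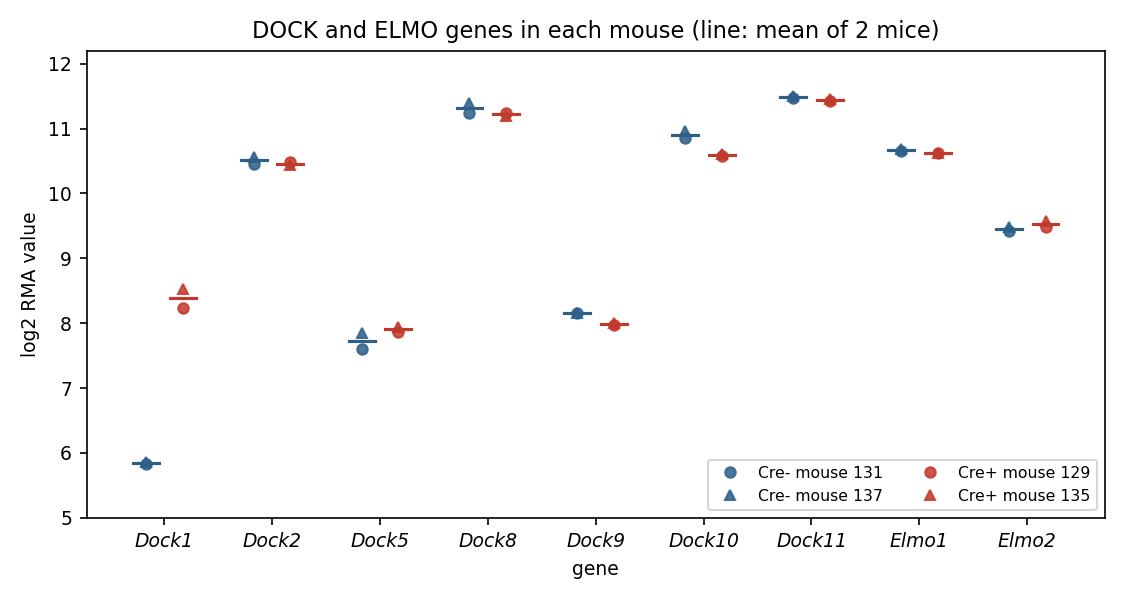
The log2 RMA value (vertical axis) of each of the 9 genes (horizontal axis) is plotted for every mouse, with a line at the mean of the 2 mice of a group. The Dock1 points lie at 5.83 and 5.87 for Cre- and at 8.24 and 8.53 for Cre+, while the groups lie within 0.31 of each other for the other 8 genes. Levels of different genes depend on their probes and are not compared.

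Dock2, the Rac exchange factor of lymphocytes that acts downstream of chemokine receptors, did not share the Dock1 difference. It was at 10.49 and 10.43 in Cre+ cells and at 10.46 and 10.57 in Cre- cells. The groups overlapped, and the difference was -0.05 (SE 0.06), or -0.0005 without Cre- mouse 137 and -0.11 without 131. Dock5, the third ELMO-dependent form, was at 7.87 and 7.94 in Cre+ cells and at 7.60 and 7.85 in Cre- cells. The Cre+ values were the higher ones by only 0.02, less than the gap of 0.25 between the Cre- mice, and the difference of the means was 0.18 (SE 0.12). It was 0.06 without Cre- mouse 131 and 0.30 without 137.

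Of the Cdc42 exchange factors, Dock10 had the largest difference, toward lower values in Cre+ cells. Dock10, which is expressed in lymphocytes, was at 10.58 and 10.61 in Cre+ cells and at 10.85 and 10.96 in Cre- cells. The groups were separated by 0.25, more than the gap of 0.10 between the Cre- mice, and the difference was -0.31 (SE 0.06), or 1.24-fold. It was -0.27 in the female pair and -0.35 in the male pair, and between -0.36 and -0.26 with any one mouse left out. Dock9 was at 7.970 and 7.997 in Cre+ cells and at 8.156 and 8.165 in Cre- cells, with a difference of -0.18 (SE 0.09). Here too the groups did not overlap, and both pairs differed by similar amounts, -0.19 and -0.17. Dock11 was at 11.43 and 11.46 against 11.47 and 11.50, a difference of -0.04 (SE 0.04), with only 0.01 between the groups. With any one mouse left out it lay between -0.06 and -0.02. Dock8, which links Cdc42 to the actin cytoskeleton of migrating lymphocytes, was at 11.25 and 11.19 in Cre+ cells and at 11.24 and 11.40 in Cre- cells. These groups overlapped, and the difference was -0.10 (SE 0.07), or -0.02 without Cre- mouse 137 and -0.18 without 131.

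The ELMO scaffolds, which assist Dock1, Dock2 and Dock5, differed by less than 0.10 between the groups. Elmo1, the form of haematopoietic cells, was at 10.63 and 10.62 in Cre+ cells and at 10.65 and 10.69 in Cre- cells. The Cre- values were the higher ones by 0.02, and the difference was -0.05 (SE 0.05), or between -0.06 and -0.03 with any one mouse left out. Elmo2 was at 9.48 and 9.58 in Cre+ cells and at 9.42 and 9.48 in Cre- cells. These groups overlapped by less than 0.01 and their difference was 0.08 (SE 0.08), or between 0.03 and 0.13 with any one mouse left out.

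Dock1 thus exceeded its relatives and partners by about its whole difference. Its difference exceeded the mean of those of Dock2 and Dock8 by 2.61, with 2.39 in the female pair and 2.83 in the male pair. Against the mean of Elmo1 and Elmo2 the excess was 2.52, with 2.39 and 2.65 in the pairs. Against Dock5, its close relative, it was 2.35. Over the 4 pairings of a Cre+ with a Cre- mouse, the lowest of these values was 2.14 and the highest 2.83. The groups did not overlap for 6 of the 9 genes, 2 with higher and 4 with lower Cre+ values, and 36.4% of all 19938 genes met that criterion (16.1% higher and 20.3% lower). Higher means were seen for 3 genes and lower means for 6 in Cre+ cells, with a median difference of -0.05 against -0.0087 over all genes. The genes were chosen with this contrast in view, so nothing is read from these counts.

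**Figure D2:**
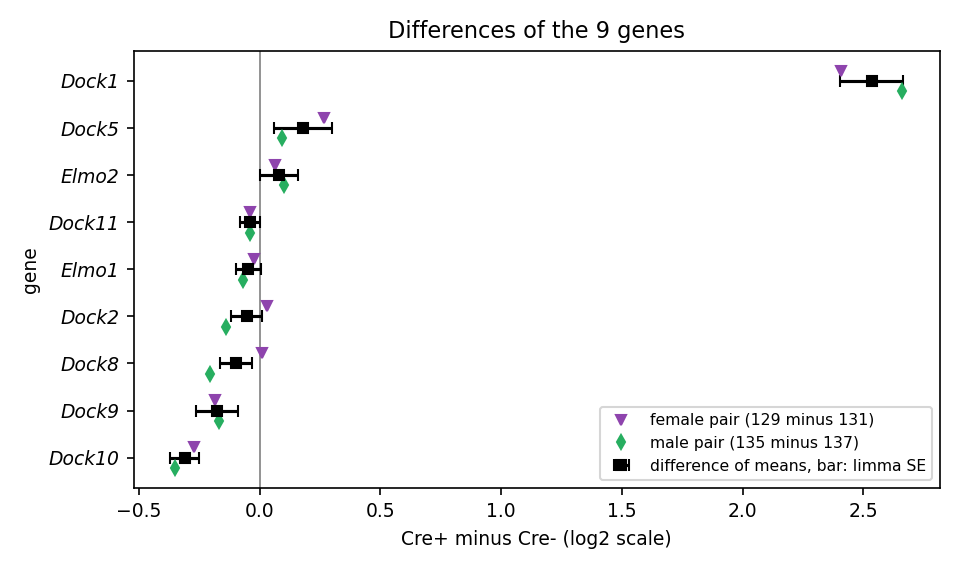
The horizontal axis gives Cre+ minus Cre- on the log2 scale for the 9 genes (vertical axis). Squares are differences of the group means with limma's SE as bars, and the other symbols are the female and the male pair of mice. Dock1 lies at 2.53 and the other 8 genes between -0.31 and 0.18.

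The file gives no detection call, so the low end of the scale was described with 1035 probe sets of olfactory receptor genes, which serve smell and are not known as genes of thymocytes. Their median lay between 4.57 and 4.61 on the 4 arrays and their 95th percentile between 6.13 and 6.23. Dock1 lay below that 95th percentile in both Cre- mice, at the 90.3rd and 92.0th percentile of these probe sets, and above 99.9% of them in both Cre+ mice. Among all 21789 probe sets with 1 gene symbol it moved from the 28.9th and 30.9th percentile in the Cre- mice to the 61.4th and 64.2nd in the Cre+ mice. The Cre- level of Dock1 can therefore not be told from that of a dim probe set, and the fold describes RMA values and not transcript numbers. Dock2, Dock8, Dock10, Dock11, Elmo1 and Elmo2 were brighter than all olfactory receptor probe sets on every array. Dock5 and Dock9 were above at least 99.5% of them on every array. Percentiles depend on the probes of each gene and do not rank the genes by transcript amount.

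**Figure D3:**
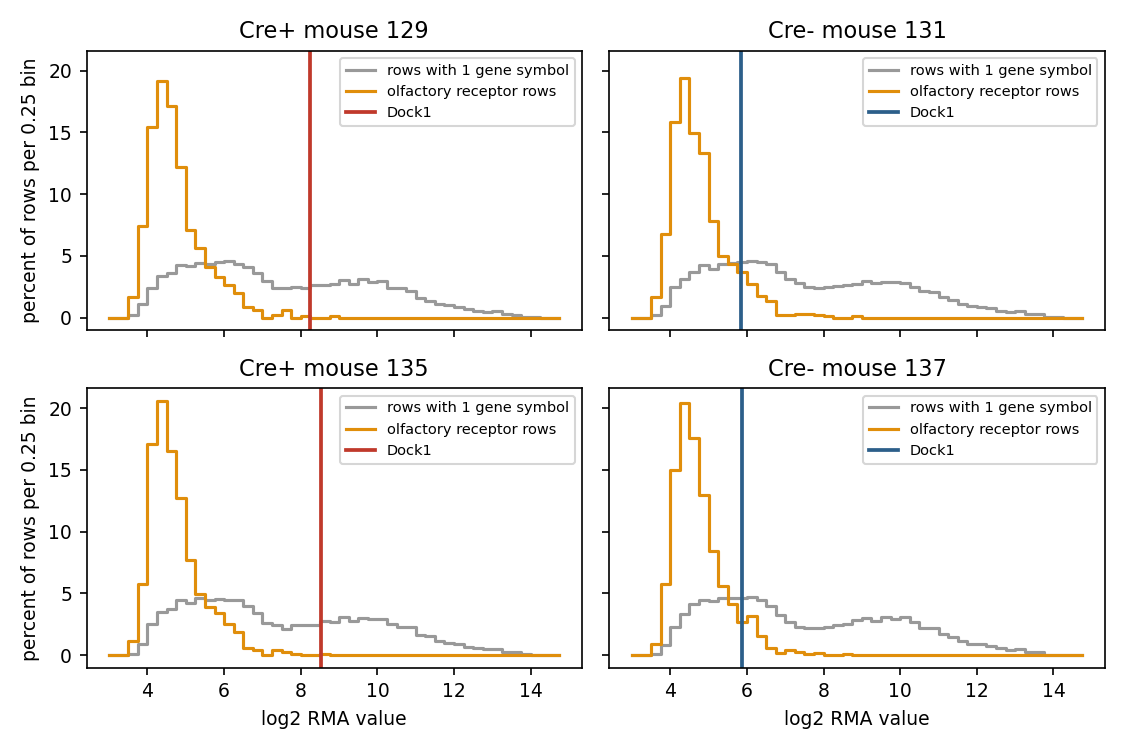
Each panel is the array of 1 mouse and shows the share of probe sets (vertical axis, percent per bin) at each log2 RMA value (horizontal axis) for all probe sets with 1 gene symbol and for those of olfactory receptors. The vertical line is Dock1, which lies at 5.83 and 5.87 within the upper part of the olfactory receptor distribution for Cre- and at 8.24 and 8.53 to its right for Cre+.

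By Euclidean distance over the 4 mice, with each gene centred on its mean, the 5 genes with the pattern most like Dock1 were Ctnnd1 (distance 0.49), Ica1 (0.55), Zfp948 (0.82), Mpzl2 (0.85) and Maged1 (0.89). Ctnnd1, which encodes p120 catenin of cell junctions, was at 8.42 and 8.38 in Cre+ cells and at 5.82 and 5.38 in Cre- cells. Its Cre- values lay in the dim range, as those of Dock1 did. In the same measure the nearest of the other 8 DOCK and ELMO genes was Dock5, at a distance of 2.36. This measure is set mainly by the size of the Cre+ and Cre- difference that also chose Dock1.

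Genes that neighbour Dock1 on mouse chromosome 7 did not share its difference. These 9 genes, chosen after the values were seen, were the 4 measured genes before it and the 4 after it in the RefSeq gene order, and Insyn2a, which overlaps it. Their differences ranged from -0.16 for the phosphatase gene Ptpre to 0.10 for Insyn2a, and none had an unadjusted p under 0.05 in limma. The share over all genes was 6.86%, so that none among 9 genes says little. Fank1, D7Ertd443e, Nps and Clrn3 lay in the dim range on every array, between 4.57 and 5.81, and their differences are poorly bounded. Insyn2a was at 6.79 and 6.80 in Cre+ cells and at 6.73 and 6.66 in Cre- cells.

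Of 8 other DOCK and ELMO genes 7 were measured. By their brightest probe sets 3 had higher and 4 had lower means (median -0.05). None had an unadjusted p under 0.05, against 6.86% of all genes. For Dock6 the other probe sets gave larger differences, described below. Dock4, the form that acts on Rac and Rap1 and is related to Dock3, was at 5.03 and 5.09 in Cre+ cells and at 5.32 and 5.06 in Cre- cells. Dock3 was at 5.40 and 5.34 against 5.53 and 5.40. Both lay below the 95th percentile of the olfactory receptor probe sets on every array, as Elmod1 did. Elmo3 differed by -0.05 (SE 0.10), and Elmod2 and Elmod3, which belong to the ELMO domain family and act on Arf-like GTPases, by -0.14 (SE 0.12) and 0.07 (SE 0.08).

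Dock6, an exchange factor for Rac and Cdc42 related to Dock8, had 15 separate probe sets with 1 gene symbol. The one with the highest mean differed by 0.11 (SE 0.10), and its groups overlapped. All 15 had higher means in Cre+ cells, with differences from 0.07 to 0.79 and a median of 0.25, and in 14 of them both Cre+ values lay above both Cre- values, which held for 16% of all 21789 probe sets with 1 gene symbol. The brightest one thus had the second smallest difference and was the only one whose groups overlapped. The probe set with the largest difference was at 8.11 and 8.22 in Cre+ cells and at 7.11 and 7.64 in Cre- cells. Of the 15, 7 had an unadjusted p under 0.05 in limma, against 4.05% of those 21789 with higher values at that p, and 0 passed after adjustment over all probe sets and 0 in the test that used only probe sets with 1 gene symbol. These probe sets measured the same RNA and 1 gene, so they are not independent of each other, and they were compared after the values were seen.

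**Figure D4:**
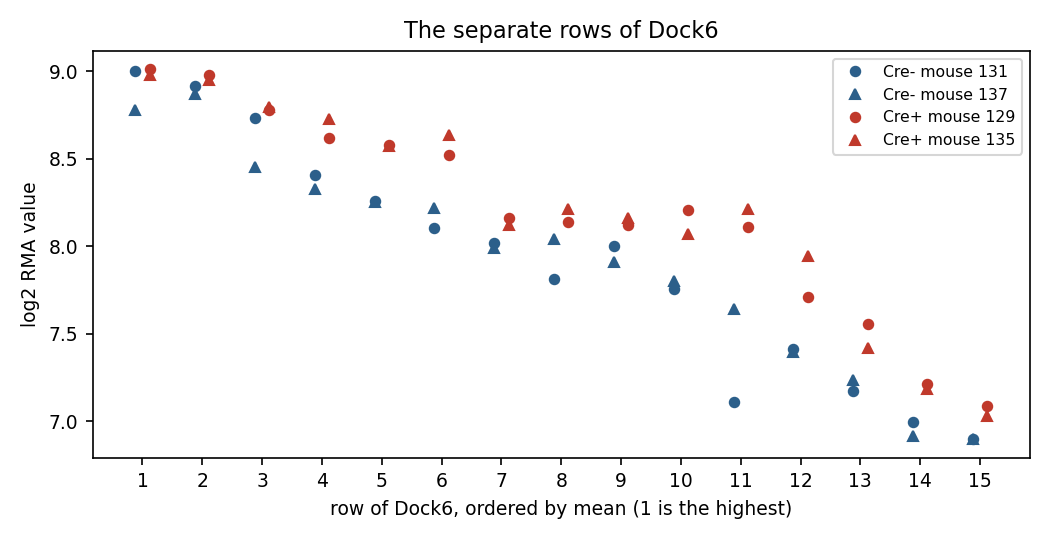
The log2 RMA value (vertical axis) of the 15 probe sets of Dock6, ordered by their mean (horizontal axis), is plotted for each mouse. The groups overlap in the probe set with the highest mean, and in the other 14 both Cre+ values lie above both Cre- values.

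Around these proteins, 9 gene lists with 127 different genes were compared, of which 117 were measured. With limma and Benjamini-Hochberg adjustment over all 35556 probe sets, 0 of the 117 passed an adjusted p of 0.05, as did 0% of all probe sets. At an unadjusted p under 0.05 there were 21 genes, 16 higher and 5 lower, or 17.9%, against 6.86% of all genes (4.12% higher and 2.74% lower). Without Cre+ mouse 129 this count was 11. In a test that used only probe sets with 1 gene symbol, 4 passed the adjusted threshold, 3 higher (Rhoq, Lrp1 and Abi2) and 1 lower (Ccr9). Of all genes, 1.25% passed this restricted test (0.953% higher and 0.296% lower). The median difference over the 117 genes was 0.01. The lists were written with earlier results of these arrays known, and Lrp1 and Ccr9 were among those results.

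In the list of Rac, Cdc42, RhoG and related GTPases, Rhoq had the largest difference. Rhoq, also called TC10, is a relative of Cdc42 and was at 6.78 and 6.92 in Cre+ cells and at 5.96 and 6.02 in Cre- cells. Its Cre- values lay in the dim range, and with them raised to its upper end the difference was 0.68 (1.60-fold). The measured difference of 0.86 (SE 0.10, 1.81-fold) passed that restricted test (adjusted p = 0.00536, limma) but not over all probe sets (adjusted p = 0.167). Rhoj, another Cdc42 relative with Cre- values in the dim range, differed by 0.47 (SE 0.14) and Rac1 by 0.08 (SE 0.03), both without passing. Of the 10 genes of this list, 7 had higher means (median 0.04).

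Genes upstream of Dock1 fell into 2 lists. Of 12 measured adaptor genes, such as those of the CRK and p130Cas complexes that recruit Dock1, none had an unadjusted p under 0.05 (median -0.01). The share over all genes was 6.86%. The 3 with the smallest p were Grb2, Git1 and Nck1, with differences of -0.18 (SE 0.10), 0.13 (SE 0.08) and 0.13 (SE 0.08). Of 21 engulfment receptor and bridging genes, 12 had higher means (median 0.03). Lrp1, an endocytic receptor that also takes up dying cells, was at 9.10 and 8.91 in Cre+ cells and at 7.67 and 7.27 in Cre- cells. The groups were separated by 1.24, and the difference of 1.54 (SE 0.17, 2.91-fold) passed that restricted test (adjusted p = 0.00214, limma) but not over all probe sets (adjusted p = 0.133). Axl, a receptor tyrosine kinase for bridged phosphatidylserine, and the lipid transporter gene Abca1 differed by 0.39 (SE 0.09) and 0.46 (SE 0.12) without passing.

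Downstream of Rac and Cdc42, Abi2 had the largest difference of the 16 measured effector genes. Abi2, a subunit of the WAVE complex through which Rac drives actin branching, was at 10.44 and 10.40 in Cre+ cells and at 9.63 and 9.60 in Cre- cells. Its difference of 0.81 (SE 0.06, 1.75-fold) passed that restricted test (adjusted p = 0.00110, limma), while over all probe sets the adjusted p was 0.0758. Nckap1, another WAVE subunit, differed by 0.53 (SE 0.10) and Baiap2, which encodes the membrane-bending adaptor IRSp53, by 0.42 (SE 0.09), without passing. Of the 16, 9 had higher means (median 0.03).

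Other regulators of Rac and Cdc42 held no gene that passed. Of 25 other exchange factors, 3 had higher and 1 lower values at an unadjusted p under 0.05 (median 0.03), against 4.12% and 2.74% of all genes. Fgd1, a Cdc42 exchange factor, differed by 0.57 (SE 0.12), Rasgrf2 by -0.44 (SE 0.09) and Vav3 by 0.43 (SE 0.12). The Cre+ values of Rasgrf2 lay in the dim range. Of 15 GTPase-activating and GDI genes, 2 were higher and 1 lower at that p (median 0.01, the same shares of all genes applying). Srgap2 and Srgap3 differed by 0.41 (SE 0.09) and 0.33 (SE 0.10), and Arhgap15, a Rac GTPase-activating protein of blood cells, by -0.17 (SE 0.06). Among 5 DOCK8 partners (median -0.04), Wipf1 differed by -0.15 (SE 0.10), Mob1b by -0.08 (SE 0.08) and Stk4 by -0.04 (SE 0.04).

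The chemotactic receptors that signal to Dock2 had lower values in 4 of 6 cases (median -0.18). Ccr9, the thymic receptor for CCL25, was at 10.41 and 10.21 in Cre+ cells and at 10.92 and 10.97 in Cre- cells. Its difference of -0.64 (SE 0.08, 1.56-fold) passed that restricted test (adjusted p = 0.00743, limma) but not over all probe sets (adjusted p = 0.199). Ccr4 and S1pr1, the receptor for thymic egress, differed by -0.49 (SE 0.10) and -0.26 (SE 0.09) without passing. Ccr9 was also in the list of DP markers, genes of the stage that follows DN4. Of the 5 measured, 3 were lower and 1 higher at an unadjusted p under 0.05, against 2.74% and 4.12% of all genes. Cd8a differed by -0.61 (SE 0.21), Cd8b1 by -0.27 (SE 0.08) and Cd4 by 0.54 (SE 0.11), all at that p, and Cd69 by -0.41 (SE 0.16). The list's median was -0.41, or between -0.62 and -0.20 with any one mouse left out. The part of the stage of the sorted cells in the Ccr9 and Dock1 differences was not tested.

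**Figure D5:**
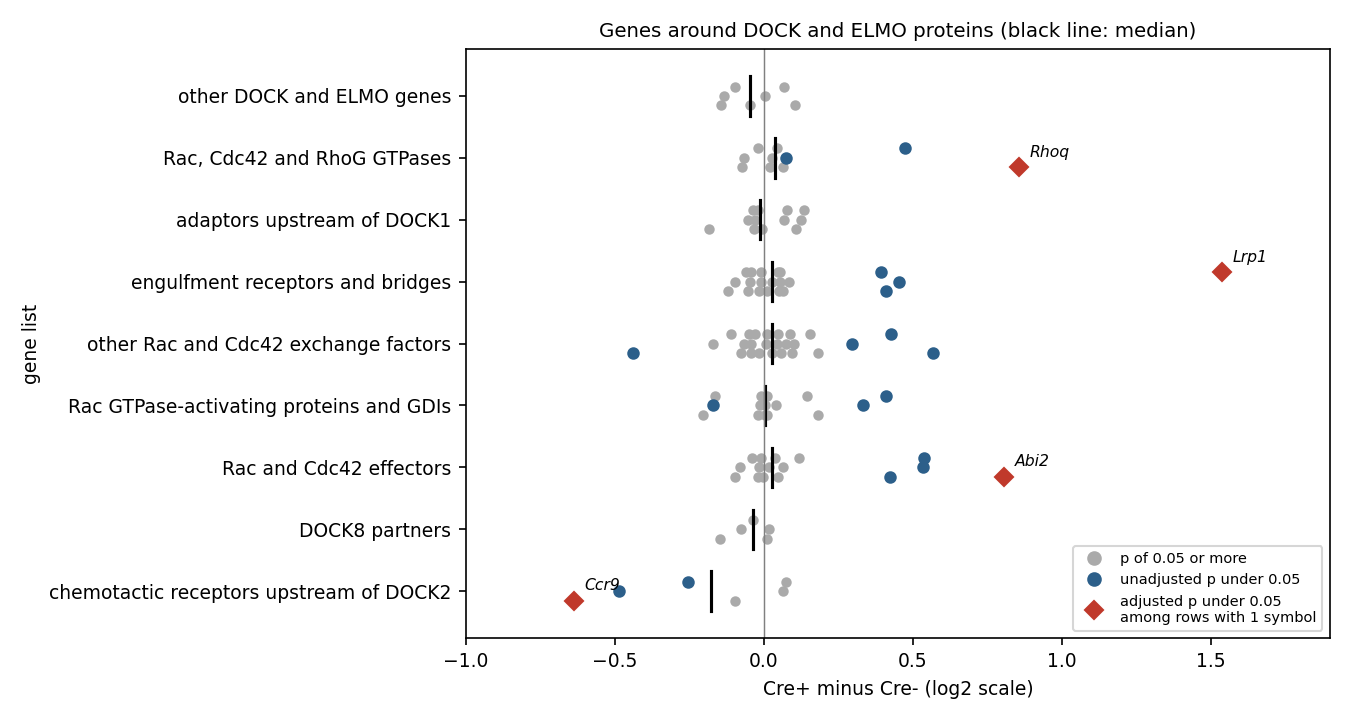
Each point is a gene, placed by Cre+ minus Cre- on the log2 scale (horizontal axis) within its list (vertical axis), with a black line at the list's median. Diamonds mark the 4 genes that passed the test that used only probe sets with 1 gene symbol, Rhoq at 0.86, Lrp1 at 1.54, Abi2 at 0.81 and Ccr9 at -0.64, and all 9 medians lie between -0.18 and 0.04.

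Marker lists, also written with earlier results of these arrays known, were read beside Dock1. Of the 12 T lineage markers, 4 were higher and 1, the adhesion gene Cd2, lower at an unadjusted p under 0.05. Of all genes, 4.12% were higher and 2.74% lower at that p, and 1.25% passed the restricted test. The same shares of all genes apply to the marker lists that follow. In the restricted test 3 of the 12 passed, and these 3 encode chains of the CD3 complex. Cd3d differed by 0.66 (SE 0.08, adjusted p = 0.00432, limma), Cd3g by 0.37 (SE 0.05, adjusted p = 0.00979) and Cd3e by 0.25 (SE 0.04, adjusted p = 0.0180). Over all probe sets none of them passed (adjusted p = 0.182, 0.251 and 0.270, limma). The list's median was 0.05, or between -0.01 and 0.13 with any one mouse left out.

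Other cells that may express Dock1 were covered by the remaining lists. Of 12 macrophage and monocyte markers, 8 had higher means and 1, the lysozyme gene Lyz2, had an unadjusted p under 0.05. Lyz2 was at 7.56 and 7.59 in Cre+ cells and at 6.79 and 6.29 in Cre- cells. Its difference of 1.04 (SE 0.18) passed that restricted test (adjusted p = 0.0206, limma) but not over all probe sets (adjusted p = 0.327). The complement gene C1qc differed by 0.18 (SE 0.09) without passing, and lay below the dim reference's 95th percentile on every array. C1qb and C1qa differed by 0.26 (SE 0.19) and 0.07 (SE 0.11), with overlapping groups. The summed log2 value of the list was 69.5 to 70.9 in the Cre+ mice and 68.5 to 69.3 in the Cre- mice. Lyz2 made up most of the difference between the group means of this sum, and the list's median difference was 0.03. Of the 12, 7 (the defining Csf1r and Adgre1 among them) lay below the dim reference's 95th percentile on every array, Csf1r between 5.52 and 5.63 and Adgre1 between 4.76 and 4.87. Of 10 endothelial markers 7 had higher means and 1, the TGF-beta coreceptor gene Eng, had such a p, with 9.60 and 9.15 against 8.17 and 8.23 and a difference of 1.17 (SE 0.17). Eng passed that restricted test as well (adjusted p = 0.00774, limma) but not over all probe sets (adjusted p = 0.234). Pecam1, at -0.09 (SE 0.07), passed neither. The list summed to 67.1 to 68.1 against 65.7 to 66.9. Eng made up most of the difference between the group means of this sum, and the list's median difference was 0.03. Cdh5, Kdr, Tek and Esam lay below the dim reference's 95th percentile on every array.

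Of 11 fibroblast markers 5 had higher means, and only Pdgfrb had an unadjusted p under 0.05 (0.43, SE 0.14), with Postn at -0.11 (SE 0.08). Their sum was 72.3 to 73.0 in the Cre+ mice and 72.0 to 73.1 in the Cre- mice, and Pdgfra, Dcn, Lum and Postn lay below the dim reference's 95th percentile on every array. Of 11 thymic epithelial markers 5 had higher means, with Cldn4 at 0.44 (SE 0.12) and Epcam at -0.48 (SE 0.15), and a sum of 76.5 to 76.6 against 76.1 to 77.0. Dendritic cell markers summed to 64.7 to 65.9 in the Cre+ mice and 64.9 to 67.4 in the Cre- mice, with 3 of 10 higher and none at an unadjusted p under 0.05. The highest sum was that of Cre- mouse 137. H2-Aa differed by -0.57 (SE 0.38) and Cd74 by -0.47 (SE 0.40), and the list's median went from -0.01 to 0.03 without that mouse. The part of other cells in the Dock1 difference was not tested.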

How the data were processed

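Total RNA of sorted DN4 thymocytes was labelled in 2 cycles and hybridised to Affymetrix mouse gene arrays, per the labels' protocols. The authors deposited log2 values for every probe set and mouse, computed with RMA according to the submitters' processing notes. That the scale is log2 was taken from their range. For the RMA version, filters and genome build, the entry is: not given in the sources used here. No sample column was left unused (0).

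Probe sets were named through the platform annotation (21789 with 1 gene symbol, 1621 with several, 12146 without one), and 21698 of the first matched RefSeq by gene number, with 0 symbols changed. Cre+ and Cre- mice, grouped by their titles, were compared on all 35556 probe sets in R 4.3.3 with limma 3.58.1 (lmFit and trended eBayes), Benjamini-Hochberg adjustment and a threshold of 0.05. The test called restricted used only those with 1 gene symbol and pooled the spread over them alone. The SEs given are those of the fit over all probe sets. Degrees of freedom were 2 residual and 2.99 prior. The smallest p of an exact two-sided permutation test of 2 against 2 mice is 0.333, and limma's p-values depend on the spread it pools over probe sets.

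The 9 genes and all gene lists were chosen with earlier results of these data known. Named from each list around the DOCK proteins were the 3 genes with the smallest p and any that passed, from the marker lists the 2 with the smallest p and defining markers at the dim end, and all other DOCK and ELMO genes. Others (Cd3e, Cd2, Cd8a, Cd8b1, Cd69, Ms4a1, the neighbours of Dock1 and the probe sets of Dock6) were chosen after their values were seen. So were C1qa, C1qb and the further class II and B cell genes given for mouse 137. Of the 12 marker lists, those for DN2 and DN3, granulocyte, B, natural killer, and erythroid and platelet cells are summarised in the closing section. On simulated data for this comparison (5 runs over 35556 independent probe sets, 200 of them changed) limma called 57.8% of the 2-fold and 96.4% of the 4-fold changes, with a mean of 8.2 false calls. The simulated spread came from limma's own fit. Among the 19938 measured genes, 58 were higher and 8 lower by 1 or more on the log2 scale, and 4 were higher by 2 or more. With 0 of the 35556 measured probe sets passing, the recovered shares do not carry over to these data. Motifs were searched in RefSeq promoter windows of GRCm38.p6 with Python 3.11.15. Alternatives covered scaling, filters on dim probe sets, the variance model, array weights, sex as a block, and each mouse left out. Raising dim Cre- values to the 95th percentile of olfactory receptor probe sets, and the marker lists without each mouse, were added after seeing the data.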

Additional observations from a re-analysis of the deposited data

Results flagged for a closer look

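For 2 of the 9 genes the female pair (129 and 131) and the male pair (135 and 137) differed in opposite directions. Dock2 differed by 0.03 in the female pair and by -0.14 in the male pair, a gap of 0.17. Dock8 differed by 0.01 in the female pair and by -0.21 in the male pair, a gap of 0.21. With 1 pair per sex these gaps were not tested. In both genes Cre- mouse 137 had the highest of the 4 values. This mouse also stood apart in some class II and B cell genes, and a link was not tested.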

How the results depend on the processing

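The labels share no mouse number between the groups, and the mice were paired only by sex. With sex as a block the pathway genes at an unadjusted p under 0.05 numbered 19. The Dock1 difference of 2.53 lay between 2.39 and 2.68 with a mouse left out and between 2.53 and 2.54 under the scalings, and it was 2.21 with the Cre- values raised to the dim reference, which is above them by construction. The other settings (variance model, weights, sex block, filters, probe sets used) cannot change a difference of the 9 genes and say nothing about its stability. Under the scalings and with a mouse left out each of the 9 kept its sign, with Dock2 at -0.0005 without Cre- mouse 137. Under the scalings, the Elmo1 difference of -0.05 moved by more than its spread between mice, to -0.01 with quantile normalization again. The excess of Dock1 over the mean of Dock2 and Dock8 (2.61) lay between 2.44 and 2.78 with a mouse left out. Pathway genes past the adjusted threshold numbered 0 over all probe sets and 4 among probe sets with 1 gene symbol. They numbered 1 without probe sets under the 25th percentile and 2 without those under the median. In these subsets fewer probe sets were tested, and limma's pooled spread was estimated again from them, so unadjusted p-values changed too. The part of each was not separated. Pathway genes at an unadjusted p under 0.05 numbered 21, or 13 without probe sets under the median, where fewer genes were tested, and 11 to 22 with a mouse left out, the lowest without Cre+ mouse 129. The lone mouse of a group was then assumed to vary like the others. No scaling moved the median of all genes by more than 0.1. With 2 arrays in each group and no detection call, differences of genes at the dim end, such as Dock3 and Dock4, are poorly bounded.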

Other observations

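Marker lists not described above, also written with earlier results of these arrays known, gave these values. Of 9 DN2 and DN3 markers 7 had lower means (median -0.25, or between -0.26 and -0.07 with any one mouse left out). At an unadjusted p under 0.05, 1 was higher and 1 lower, against 4.12% and 2.74% of all genes. Hes1, the Notch-induced repressor, differed by 0.91 (SE 0.05). It passed the restricted test (adjusted p = 0.000467, limma) but not the test over all probe sets (adjusted p = 0.0570). Cd44 differed by -0.42 (SE 0.10) without passing, and its Cre+ values lay in the dim range. Of 7 B cell markers 6 had lower means (median -0.19), but 4 without Cre- mouse 137 (median -0.0073), with Cd79a differing by -0.35 (SE 0.12) and Cd79b by 0.25 (SE 0.09). Of 10 natural killer cell markers 5 had lower means (median -0.03). Nkg7 differed by -1.04 (SE 0.09) and passed the restricted test too (adjusted p = 0.00114, limma), but not over all probe sets (adjusted p = 0.0791). Gzma differed by -0.19 (SE 0.03) without passing. Granulocyte markers (8 genes, median -0.03) and erythroid and platelet markers (7 genes, median 0.02) held none at an unadjusted p under 0.05. The smallest p in these were those of Ly6g (0.18, SE 0.08) and Elane (-0.11, SE 0.10), and of Ppbp (-0.09, SE 0.06) and Gp9 (-0.13, SE 0.11).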
